A study of Homo sapiens and Mus musculus with 30 samples.

Results

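The RNAs described here are 10 long transcripts that are not known for a protein product: 8 noncoding snoRNA host genes (SNHG1, SNHG5, SNHG6, SNHG8, SNHG12, SNHG15, GAS5 and EPB41L4A-AS1) and 2 nuclear RNAs, MALAT1 and NEAT1, which were taken as a low-occupancy reference. They were chosen by gene symbol, with no measured value in the rule, although earlier results of these data were known. All 10 were found among the 11342 genes of the HEK293A table and among the 57820 genes of the let-7a table. The NIH3T3 table, with 41128 genes, held 7 of them, namely Gas5, Snhg1, Snhg5, Snhg6, Snhg12, Malat1 and Neat1. The mouse forms of SNHG8, SNHG15 and EPB41L4A-AS1 were not analysed here.

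The study set polysome-bound RNA against total RNA while the amount of LIN28B was raised in steps. LIN28B binds many mRNAs and keeps let-7 microRNA precursors from being processed. The cells were HEK293A, derived from human embryonic kidney, and the mouse fibroblast line NIH3T3, both in DMEM with 10% FBS. X1, X2, X3 and X4 carry increasing LIN28B and X0 is the LIN28B knockout. The labels state induction of the LIN28B transgenes by doxycycline at 10 ng/ml without saying which levels received it, and they do not say whether a level is 1 clone. A further X0 pair in HEK293A received mature let-7a at 10 nM by lipid transfection, and 8 small RNA libraries covered knockout and X3 cells, with and without let-7a, as AGO2 immunoprecipitates and as total small RNA. There was 1 polysome and 1 total RNA library for each level and line, so p-values rest on the scatter of the 5 levels around a fitted line or mean and not on repeated cultures.

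A snoRNA host is transcribed and spliced like an mRNA, and its introns are trimmed into small nucleolar RNAs, which guide chemical modification of ribosomal RNA. The spliced exons leave the nucleus, carry short reading frames and are classically degraded by nonsense-mediated decay, a pathway that needs translation. GAS5 and several relatives begin, like ribosomal protein mRNAs, with a 5′ terminal oligopyrimidine (TOP) stretch through which growth signalling controls their loading on ribosomes. MALAT1 resides in nuclear speckles, and NEAT1 is the scaffold of paraspeckles.

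RefSeq start sites were used for 7 of the 10 genes (none for SNHG6, SNHG15 and NEAT1) and are shown because a pyrimidine stretch at the first base is what defines a TOP transcript. The 30 bases before and the 30 bases from the annotated start are given 5′ to 3′ on the gene's strand (GRCh38.p14), and capitals mark the unbroken run of C and T that covers the first transcribed base.
SNHG5: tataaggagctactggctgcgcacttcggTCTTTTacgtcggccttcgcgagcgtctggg
SNHG12: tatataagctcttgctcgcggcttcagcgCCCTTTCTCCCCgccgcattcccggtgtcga
SNHG8: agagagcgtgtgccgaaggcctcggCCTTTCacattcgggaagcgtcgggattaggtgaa
SNHG1: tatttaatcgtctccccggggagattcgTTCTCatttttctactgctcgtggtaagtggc
EPB41L4A-AS1: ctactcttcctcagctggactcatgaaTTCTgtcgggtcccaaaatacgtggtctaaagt
GAS5: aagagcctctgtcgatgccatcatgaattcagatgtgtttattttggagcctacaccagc
MALAT1, upstream start: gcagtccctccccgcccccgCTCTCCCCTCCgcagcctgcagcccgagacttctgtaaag
MALAT1, downstream start: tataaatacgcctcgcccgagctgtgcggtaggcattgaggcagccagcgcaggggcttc
These windows lie at chr6:85678704-85678763, chr1:28581844-28581903, chr4:118278732-118278791, chr11:62855856-62855915, chr5:112160496-112160555, chr1:173869016-173869075, chr11:65497708-65497767 and chr11:65499015-65499074, in the order listed, with SNHG5, SNHG12, SNHG1 and GAS5 on the minus strand. SNHG5 and SNHG12 had a C as the first base followed by at least 4 pyrimidines, a pattern held by 4.07% of the 35116 RefSeq windows of the same length. A run of 5 or more C or T bases covered the start in SNHG1, SNHG5, SNHG8, SNHG12 and the upstream start of MALAT1, against 9.6% of all windows. Such a run can lie mostly before the start. In SNHG8 and at the upstream MALAT1 start it ended on the first transcribed base, so neither had a transcribed pyrimidine stretch there. The annotated GAS5 start falls on a purine. A letter match at an annotated start describes that annotation and is not a mapped 5′ end in these cells.

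Values are RPKM, that is reads per kilobase of gene per 1e6 reads, as deposited by the authors. Total RNA libraries of HEK293A held between 37.7 and 56.0 M reads (M, 1e6) and polysome libraries between 9.09 and 14.6 M, the lowest at X2. NIH3T3 had 15.6 to 20.4 M polysome and 15.2 to 23.6 M total RNA reads. LIN28B in HEK293A stood at 3.60, 23.0, 33.4, 81.2 and 208 RPKM of total RNA from X0 to X4, the order of the labels, with a residual value in the knockout. Mouse Lin28b in NIH3T3 was listed at 0.0074, 0.0107, 0.0115, 0.0834 and 0.354 RPKM of total RNA from X0 to X4, all below the filter of 1 RPKM, and the labels do not give the species of the transgene in that line. KRT8, KRT18, CDH2 and VIM, known in HEK293A, were all present in every total RNA library, CDH2 the lowest at 18.5 to 21.3 RPKM. All 6 fibroblast markers were abundant in NIH3T3 total RNA, Vim the highest at 1221 to 2994 RPKM, where Cdh1, Epcam, Krt18, Ptprc and Alb did not pass 0.0875 RPKM. The human table lists no gene below 1.0 RPKM in total RNA, so PAX2 and NEFM, also looked for in HEK293A, are not among its rows, and markers of other cell types could not be checked there.

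In HEK293A, snoRNA hosts lay on polysomes more than the nuclear RNAs at every LIN28B level. Occupancy is defined here as log2(polysome RPKM + 0.5) minus log2(total RPKM + 0.5), so that 0 means equal RPKM in both fractions. RPKM is relative within a library, and occupancy is therefore relative to the other RNAs of the fraction. At each of the 5 levels all 8 hosts had a higher occupancy than both nuclear RNAs. Most genes did so too, and the order alone does not set the hosts apart. MALAT1, the higher of the 2 nuclear RNAs, lay at percentiles 0.396, 1.20, 0.755, 5.28 and 10.7 of all 11125 genes at X0 to X4. The gap was narrowest at X1, where the lowest host, SNHG12, was at −1.65 and the higher nuclear RNA, MALAT1, at −1.82.

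SNHG8, host of SNORA24, was the most polysome-associated of the 10. Its polysome values were 82.8, 75.1, 82.0, 104 and 114 RPKM at X0 to X4, against 41.0, 40.8, 42.2, 39.4 and 39.1 RPKM in total RNA. Every polysome library exceeded every total RNA library, and its occupancy stood between percentiles 90.1 and 95.1 of all 11125 genes tested. Mean occupancy was 1.15 ± 0.29 (SD, n = 5 levels), called higher in polysomes by limma (adjusted p = 5.0e-05). SNHG15, host of SNORA9, had 39.0, 36.4, 36.0, 46.7 and 50.1 RPKM in polysomes against 25.5, 26.7, 27.5, 24.2 and 24.3 RPKM in total RNA. The 2 fractions again did not overlap, and the mean occupancy was 0.68 ± 0.29 (SD, n = 5 levels; limma adjusted p = 0.0015). The share of all genes whose fractions do not overlap was not computed.

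GAS5, SNHG1 and SNHG5 were not called in either direction. GAS5, which hosts a series of box C/D snoRNAs (SNORD44 and SNORD74 to SNORD81 among them), had 31.1, 32.6, 26.8, 39.4 and 42.1 RPKM in polysomes against 39.7, 43.4, 39.5, 35.0 and 36.6 RPKM in total RNA. SNHG5, host of SNORD50A and SNORD50B, had 25.1, 25.9, 20.2, 33.4 and 37.1 RPKM in polysomes against 35.3, 34.0, 33.9, 31.2 and 31.6 RPKM in total RNA. In both genes polysome values lay below total RNA at X0, X1 and X2 and above it at X3 and X4. SNHG1, host of SNORD22 and SNORD25 to SNORD31, was the least abundant of the hosts in total RNA, with 3.07, 4.47, 3.95, 5.83 and 5.04 RPKM in polysomes against 3.99, 5.24, 5.41, 4.03 and 4.17 RPKM in total RNA, and it crossed at the same step. Mean occupancies were −0.19 ± 0.35 for GAS5, −0.04 ± 0.39 for SNHG1 and −0.26 ± 0.41 for SNHG5 (SD, n = 5 levels), with no call for polysome against total RNA (limma adjusted p of 0.27, 0.80 and 0.17).

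The other 3 hosts were lower in polysomes than in total RNA. SNHG6, host of SNORD87, had 21.1, 28.0, 15.8, 25.5 and 31.3 RPKM in polysomes against 40.1, 34.8, 35.6, 32.1 and 32.1 RPKM in total RNA, with a mean occupancy of −0.55 ± 0.46 (SD, n = 5 levels; limma adjusted p = 0.016). EPB41L4A-AS1, host of SNORA13, had 4.57, 4.20, 2.68, 5.04 and 4.90 RPKM in polysomes against 6.84, 6.69, 7.04, 6.79 and 7.23 RPKM in total RNA. Its X2 polysome value rests on 82 reads, with a counting interval of 2.13 to 3.32 RPKM (exact Poisson, 95%), below the values of the other 4 levels. SNHG12, host of SNORA16A, SNORA44, SNORA61 and SNORD99, had 4.62, 3.21, 3.40, 3.69 and 3.77 RPKM in polysomes against 9.04, 11.1, 11.2, 9.76 and 9.60 RPKM in total RNA. It was the lowest host at X1 to X4, and its percentiles were 16.8, 1.98, 3.50, 17.2 and 26.1 from X0 to X4. The mean occupancy of SNHG12 was −1.33 ± 0.30 (SD, n = 5 levels; limma adjusted p = 2.4e-05).

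The nuclear RNAs were the lowest. MALAT1 had 2.27, 1.88, 1.29, 1.28 and 1.26 RPKM in polysomes against 12.3, 7.94, 7.22, 5.24 and 5.09 RPKM in total RNA. NEAT1 had 0.987, 0.660, 0.398, 0.445 and 0.356 RPKM in polysomes against 13.5, 9.95, 9.71, 7.66 and 7.48 RPKM in total RNA. Their mean occupancies of −1.90 ± 0.24 and −3.25 ± 0.15 (SD, n = 5 levels) were both called lower by limma (adjusted p of 3.0e-06 and 1.6e-07). NEAT1 lay at or below percentile 0.153 at every level, and MALAT1 between percentiles 0.396 at X0 and 10.7 at X4. The 0.5 RPKM added before taking logs is as large as the NEAT1 polysome value itself. The plain ratio of polysome to total RPKM was 0.0410 to 0.0731 for NEAT1 and 0.179 to 0.249 for MALAT1, beside 0.288 to 0.511 for SNHG12 and 1.84 to 2.91 for SNHG8.

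**Figure D1:**
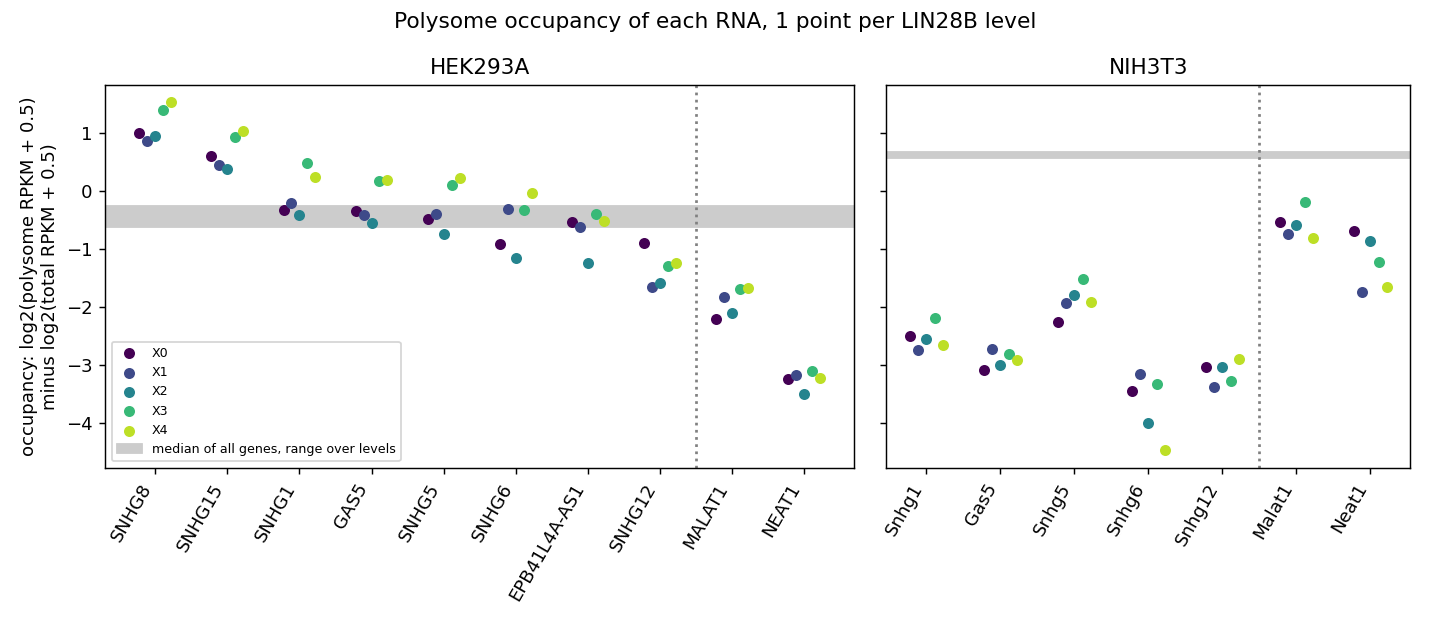
Polysome occupancy (log2, vertical axis) of each RNA in HEK293A on the left and NIH3T3 on the right, with 1 point per LIN28B level, hosts left of the dotted line and nuclear RNAs right of it. The grey band is the range over levels of the median of all genes. In HEK293A every host point of a level is above both nuclear RNAs of that level, and in NIH3T3 every host point is below them.

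In all, 5 of 10 members were lower and 2 of 10 higher in polysomes, where 52.8% of the 11125 genes were called lower and 21.8% higher, so that the shares alone do not set the members apart. The median occupancy of all genes was −0.43. With libraries centred on their trimmed mean, or with edgeR's quasi-likelihood test on recovered reads, the calls for SNHG6 and EPB41L4A-AS1 were lost and 3 members remained lower. All genes split into 29.2% of calls higher as deposited and 46.5% higher after centring. Of the 10 further noncoding hosts listed, 3 were higher and 3 lower in polysomes, with a median of −0.22. ZFAS1 (1.23) and DANCR (0.84) were higher while SNHG3 (−1.62) and SNHG10 (−0.82) were lower. Protein-coding snoRNA hosts, mostly ribosomal protein and translation factor genes, were higher in 25 of 38 and lower in 9 of 38, with a median of 0.65. RPL21 (1.59), RPS20 (1.56) and EEF1B2 (1.44) were higher and RPSA (−1.48) was lower. All 5 other long noncoding RNAs tested were lower, among them LINC00657 (−2.81), OIP5-AS1 (−2.16), TUG1 (−1.21) and CRNDE (−0.99). Values in this paragraph are mean log2 occupancies with adjusted p under 0.05 in limma where a gene is named.

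The occupancy of 4 hosts rose with LIN28B in HEK293A. The slope per level was 0.17 for GAS5, 0.18 for SNHG1, 0.19 for SNHG5 and 0.16 for SNHG8 (SE 0.062, 0.071, 0.069 and 0.053, in log2 per step of the level rank), with adjusted p of 0.039, 0.044, 0.034 and 0.027 in limma. With the variance prior following the mean log2 ratio instead, GAS5 missed the threshold (adjusted p = 0.052) and 3 members were called, and at a mean of 5 RPKM SNHG1 was not tested and 3 were called. Occupancy at X4 was 1.46-fold that at X0 for GAS5, 1.49-fold for SNHG1, 1.64-fold for SNHG5 and 1.44-fold for SNHG8. The course was not even. Relative to X0, GAS5 stood at −0.06, −0.20, 0.52 and 0.55 at X1, X2, X3 and X4, and SNHG5 at 0.10, −0.25, 0.58 and 0.71. SNHG8 stood at −0.14, −0.06, 0.38 and 0.52, and SNHG1 at 0.12, −0.08, 0.81 and 0.58. All 4 were thus below X0 at X2 and above it at X3 and X4.

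The other 4 hosts did not pass the threshold. SNHG15 and SNHG6 had slopes of 0.13 ± 0.059 and 0.17 ± 0.085 (SE; limma adjusted p of 0.070 and 0.099), and EPB41L4A-AS1 and SNHG12 had slopes of 0.03 and −0.03 (limma adjusted p of 0.80 and 0.72). SNHG12 was highest at X0 and lower by 0.75, 0.69, 0.40 and 0.34 in log2 at X1, X2, X3 and X4, all 4 below it. MALAT1 had a slope of 0.12 (limma adjusted p = 0.10), with 0.38, 0.09, 0.51 and 0.54 above X0. NEAT1 had a slope of 0.01 (limma adjusted p = 0.91) and stayed between −0.27 and 0.13 of its X0 value. That course leans on the added 0.5 RPKM, which is of the size of the NEAT1 polysome values. Its plain ratio of polysome to total RPKM was 0.0731 at X0 and 0.0663, 0.0410, 0.0581 and 0.0476 at X1 to X4. With a pseudocount of 0.1 and with edgeR the NEAT1 slope was negative.

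**Figure D2:**
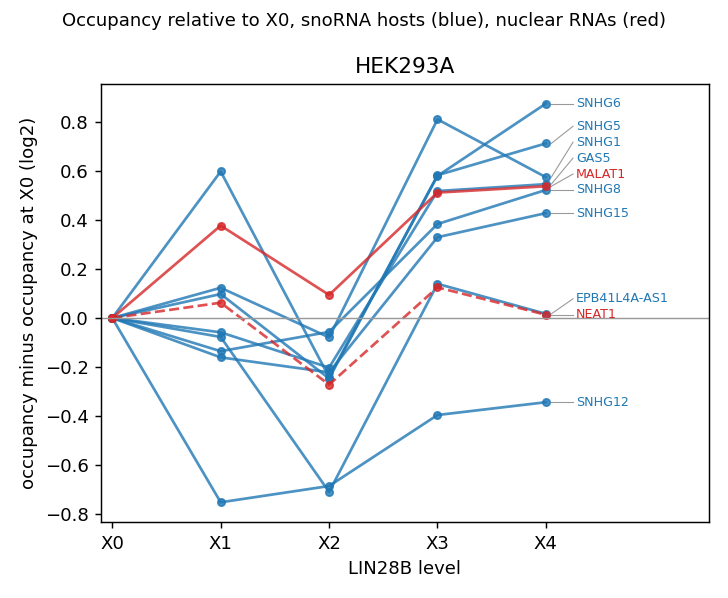
Occupancy in HEK293A minus its value at X0 (log2, vertical axis) by LIN28B level, with 1 line per RNA, hosts in blue and nuclear RNAs in red (NEAT1 dashed). GAS5, SNHG1, SNHG5 and SNHG8 lie below 0 at X2 and between 0.38 and 0.81 at X3 and X4, while SNHG12 lies below 0 at all 4 levels.

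Upward calls covered 4 of 10 members against 19.2% of all genes, and downward calls 0 of 10 against 38.9%. The median slope was 0.16 over the 8 hosts and −0.07 over all genes. Centring moved the share of upward calls among all calls to 50.7%, against 33.0% as deposited, with 3136 of 11125 genes called upward, and edgeR called 3289 upward. Under both, 7 members were called upward, with SNHG15, SNHG6 and the nuclear RNA MALAT1 added to the 4 hosts. MALAT1 had an adjusted p of 0.024 with centring and 0.047 with edgeR, and it was also called with quantile normalization (0.015) and with a pseudocount of 1 (0.044). The calls rest on X0, X3 and X4. Without X0, without X3 or without X4, 0 members were called, and over all genes 1595, 5035 and 0 were called. When X1 to X4 were set as a group against X0, no member was called and 1 gene of 11125 was (0.00899%). The X2 polysome library, in which GAS5, SNHG1, SNHG5, SNHG6, SNHG15 and EPB41L4A-AS1 had their lowest occupancy, was the shallowest of the 5, and the part of depth in this was not tested. Without X2, 6 members were called higher.

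The counts by list that follow are for libraries as deposited, without centring. On that scale 19.2% of all genes rose and 38.9% fell, with a median slope of −0.07. Protein-coding hosts rose in 15 of 38 and fell in 5 of 38, with a median slope of 0.11. TAF1D, a transcription factor subunit (0.31), rose and EEF2 (−0.39), RPS2 (−0.25) and RPL13 (−0.31) fell, and these 4 had the smallest p of the list. Of the further noncoding hosts 3 of 10 rose and 2 fell. ZFAS1 (0.17) and DANCR (0.14) rose, SNHG7 (−0.22) and SNHG17 (−0.22) fell. The mRNAs of nonsense-mediated decay and exon junction factors fell in 8 of 15 and rose in 3, with UPF1 (−0.37), SMG5 (−0.34) and CASC3 (−0.25) falling and UPF3B (0.24) rising. Among mRNAs of snoRNA-protein complexes and their assembly factors 2 of 11 rose and 5 fell, NOP58 (0.24) upward and RUVBL2 (−0.35), NHP2 (−0.25) and RUVBL1 (−0.21) downward. mRNAs of paraspeckle proteins rose in 2 of 8 and fell in 4, with TARDBP (0.16) upward and RBM14 (−0.30) and SFPQ (−0.17) downward. CRNDE (0.29) was the only 1 of 5 other long noncoding RNAs called. Values in parentheses are occupancy slopes per level with adjusted p under 0.05 in limma.

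In total RNA of HEK293A both nuclear RNAs fell with LIN28B and no host was called. In bulk RNA, fewer cells that make an RNA and less of it per cell cannot be told apart. NEAT1 had its highest total RNA value at X0 and its lowest at X4, 0.554-fold, and its slope was −0.20 ± 0.030 per level (SE; limma adjusted p = 0.018). MALAT1 followed the same order of levels with a ratio of X4 to X0 of 0.415 and a slope of −0.29 ± 0.036 (SE; limma adjusted p = 0.0096). At each level of X1 to X4 both were below X0, by 0.42 to 0.81 in log2 for NEAT1 and by 0.60 to 1.19 for MALAT1. Downward calls covered 2 of 10 members and 0.764% of all genes, upward calls 0 of 10 members and 1.48% of all genes. MALAT1 and NEAT1 polysome values were also highest at X0. Without X0 neither was called, and the number of genes called went to 3, against 250 with all levels. With X3 left out 1 of the 2 was called (MALAT1).

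The hosts' total RNA was nearly level. The highest of the 5 values exceeded the lowest by 1.08-fold for SNHG8 and EPB41L4A-AS1, 1.13-fold for SNHG5, 1.14-fold for SNHG15, 1.24-fold for GAS5 and SNHG12, 1.25-fold for SNHG6 and 1.36-fold for SNHG1. In limma 0 of 8 hosts was called, 1 had an unadjusted p under 0.05 (SNHG6, slope −0.08, adjusted p = 0.11), and edgeR called 0. For GAS5, SNHG1, SNHG5 and SNHG8 the polysome value was above its X0 value at both X3 and X4, while total RNA at these levels was between −0.18 and 0.06 of X0 in log2. HSPA8 (slope 0.10, limma adjusted p = 0.035) was the single call among 38 protein-coding hosts, and no gene of the further noncoding hosts, decay factors, snoRNA-protein complexes or paraspeckle proteins was called.

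NIH3T3 had the opposite order of occupancy. Every host lay below both nuclear RNAs at every level, and all 5 hosts were strongly depleted from polysomes. Gas5 had 13.2, 8.65, 8.15, 9.003 and 7.55 RPKM in polysomes at X0 to X4, against 115, 59.6, 68.8, 65.9 and 59.9 RPKM in total RNA. The plain ratio was 0.115 to 0.145, beside 0.678 to 1.15 in HEK293A. Snhg1 had 10.6, 6.66, 8.71, 8.78 and 6.96 RPKM in polysomes against 62.1, 47.5, 53.5, 41.8 and 46.7 RPKM in total RNA. No polysome value of either gene came near its total RNA values.

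Snhg5 had 5.69, 3.07, 3.85, 4.00 and 3.52 RPKM in polysomes against 29.1, 13.1, 14.6, 12.4 and 14.6 RPKM in total RNA. Snhg12 had 3.84, 1.86, 2.53, 1.78 and 2.20 RPKM in polysomes against 35.2, 24.0, 24.4, 21.5 and 19.5 RPKM in total RNA. Snhg6 had 2.72, 1.90, 0.999, 2.04 and 0.767 RPKM in polysomes against 34.7, 20.8, 23.6, 24.9 and 27.5 RPKM in total RNA, and its polysome values rest on 14 to 65 reads. These 3 were separated between fractions in the same way as Gas5 and Snhg1. How many of all NIH3T3 genes are separated in this way was not computed.

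Mean occupancies were −3.68 ± 0.55 for Snhg6, −3.12 ± 0.20 for Snhg12, −2.90 ± 0.15 for Gas5, −2.53 ± 0.21 for Snhg1 and −1.88 ± 0.27 for Snhg5 (SD, n = 5 levels), with adjusted p between 2.1e-08 and 1.4e-06 in limma. The hosts lay between percentiles 0.0548 and 6.82 of all genes. Neat1 had 2.26, 1.67, 2.44, 2.92 and 1.97 RPKM in polysomes against 3.93, 6.70, 4.86, 7.47 and 7.30 RPKM in total RNA, a mean occupancy of −1.23 ± 0.47 (SD, n = 5 levels; limma adjusted p = 0.00014). Malat1 was near the limit of measurement, at 0.461, 0.485, 0.127, 0.471 and 0.378 RPKM in polysomes against 0.893, 1.15, 0.437, 0.609 and 1.03 RPKM in total RNA, and with a mean of 0.603 RPKM over the 10 libraries it failed the filter of 1 RPKM. Without the filter its occupancy was −0.57 (limma adjusted p = 0.0064).

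All 6 members that passed the filter were lower in polysomes, 5 hosts and Neat1, against 13.7% of 10952 genes called lower and 71.7% called higher, and the median occupancy of all genes was 0.62. Centring changed the share of higher calls from 84.0% of all calls as deposited to 59.8%, and all 6 members stayed called lower under it and with edgeR. The further noncoding hosts were lower in 5 of 5 tested, with Snhg9 (−3.53), Snhg7 (−2.89), Snhg18 (−2.68) and Dancr (−2.23) named. Protein-coding hosts were lower in 30 of 40 and higher in 6, with a median of −2.00. Ribosomal protein hosts led them, with Rps12 at −3.56, Rpl12 at −3.15, Rps20 at −3.13 and Rpl17 at −2.84. Rps20 thus stood at −3.13 in NIH3T3, and its human counterpart at 1.56 in HEK293A. mRNAs of snoRNA-protein complexes were higher in 10 of 10 (median 0.81) and those of paraspeckle proteins in 7 of 8 (median 1.23). mRNAs of decay and exon junction factors were higher in 9 of 12 and lower in 1 (median 0.49). The latter share is near that of all genes, 71.7% of which were higher, at a median of 0.62. Tug1 (1.44), a long noncoding RNA, was higher as well. The 2 tables were normalized separately, the lines differ in species, and the difference between them was not tested.

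No NIH3T3 gene showed a linear trend with LIN28B in occupancy or in total RNA, at 0 calls of 10952 in limma (0%) and 0 in edgeR for each, while 537 and 1162 genes had an unadjusted p under 0.05. Among the members the occupancy slope ran from −0.22 (Snhg6) to 0.11 (Snhg5), with 0 of 6 at an unadjusted p under 0.05. In total RNA, Snhg12 alone had an unadjusted p under 0.05 (slope −0.18 ± 0.048, SE; limma adjusted p = 0.38). The X0 library nevertheless stood apart in the total RNA of the 5 hosts described here. Gas5 at X0 was 1.81-fold the mean of X1 to X4, Snhg5 2.13-fold, Snhg12 1.57-fold, Snhg6 1.43-fold and Snhg1 1.31-fold, and in all 5 hosts X0 was above each of the other 4 levels. Set as a group against X0, X1 to X4 were lower by 1.07 in log2 for Snhg5 (limma adjusted p = 0.0064), by 0.85 for Gas5 (adjusted p = 0.0081) and by 0.65 for Snhg12 (adjusted p = 0.026). Snhg6 and Snhg1 missed the threshold, at −0.52 and −0.39 (adjusted p of 0.054 and 0.083). Downward calls in this contrast covered 3 of 6 members and 11.4% of all genes, upward calls 0 of 6 and 11.3%. Neat1 went the other way, by 0.66 (adjusted p = 0.079). The 5 further noncoding hosts tested were also all higher at X1 to X4 than at X0, by 0.40 to 1.45 with a median of 0.59. A high X0 value was thus not shared by the noncoding hosts outside the members. The contrast hangs on 1 library of total RNA. Polysome values of all 5 hosts were likewise highest at X0. Occupancy at X1 to X4 differed from X0 by 0.22 for Gas5, 0.47 for Snhg5, −0.10 for Snhg12, −0.04 for Snhg1 and −0.29 for Snhg6. None of these differences was called.

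**Figure D3:**
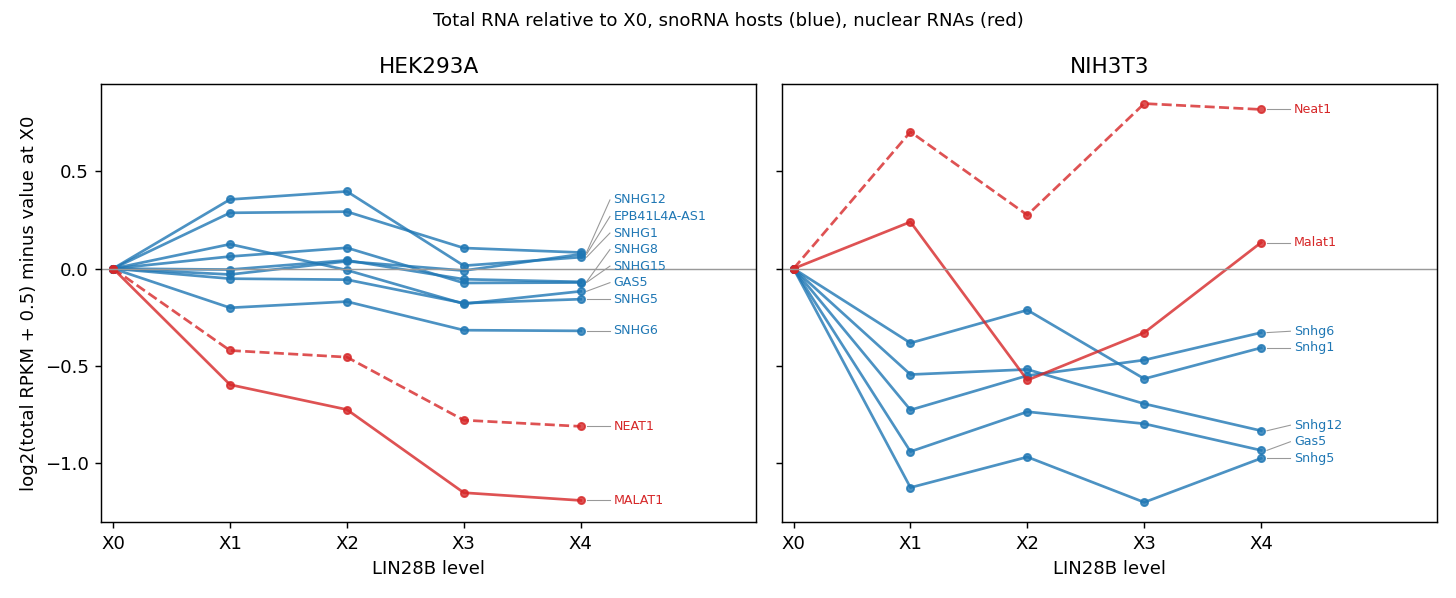
Total RNA relative to X0 (log2 of RPKM + 0.5, vertical axis) by LIN28B level in HEK293A on the left and NIH3T3 on the right, with 1 line per RNA, hosts in blue and nuclear RNAs in red (NEAT1 dashed). In HEK293A the nuclear RNAs fall to −0.81 and −1.19 at X4 while hosts stay between −0.32 and 0.40, and in NIH3T3 all 5 hosts lie below 0 from X1 on.

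Transfection of let-7a into X0 cells went with more of nearly every member in both fractions. With 1 library on each side there is no replicate check and no test, and intervals cover counting error only. NEAT1 was at 7.97 RPKM in polysomes of let-7a cells against 0.987 RPKM in untransfected X0 polysomes, a ratio of 8.08 (95% interval 7.09 to 9.22, exact binomial). In total RNA it was at 18.8 against 13.5 RPKM, a ratio of 1.40 (1.36 to 1.43). Its occupancy was −1.19 with let-7a and −3.23 without, a difference of 2.04, at percentile 99.96 of all 11125 genes. MALAT1 was at 4.92 against 2.27 RPKM in polysomes and 20.7 against 12.3 RPKM in total RNA, so that its occupancy differed by 0.23 only.

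Among hosts SNHG12 showed the largest ratio in polysomes, with 18.3 RPKM with let-7a against 4.62 RPKM without, a ratio of 3.97 (3.35 to 4.71), and 16.1 against 9.04 RPKM in total RNA. It was thereby above total RNA in polysomes, which it was at no level of the LIN28B series. EPB41L4A-AS1 was at 14.3 against 4.57 RPKM in polysomes and 9.64 against 6.84 RPKM in total RNA, and SNHG1 at 10.4 against 3.07 RPKM in polysomes and 6.40 against 3.99 RPKM in total RNA. These 3 hosts gained 0.99 to 1.08 of occupancy, percentiles 96.2 to 97.2. GAS5 had the largest ratio in total RNA, 2.34 (2.27 to 2.42), at 93.1 against 39.7 RPKM, with 89.5 against 31.1 RPKM in polysomes.

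SNHG5, SNHG15 and SNHG6 were also higher with let-7a, with ratios of 1.77, 1.53 and 1.73 in polysomes and 1.71, 1.49 and 1.17 in total RNA. SNHG8 was the exception, at 82.9 against 82.8 RPKM in polysomes (interval of the ratio 0.901 to 1.11), and at 46.6 against 41.0 RPKM in total RNA. In polysomes 5 of 10 members were higher by 2-fold or more on the log2(RPKM + 0.5) scale, against 11.3% of all genes, and in total RNA 1 of 10 (GAS5) against 2.2%. For occupancy, 2-fold or more was reached by 3 of 10, NEAT1, SNHG12 and EPB41L4A-AS1, against 3.7% of all genes, and with libraries centred by 1. None was lower by 2-fold, against 5.2%, 1.58% and 1.29% of all genes in polysomes, total RNA and occupancy. The median difference over the members was 1.24 in polysomes and 0.59 in total RNA, beside 0.13 and −0.01 over all genes.

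**Figure D4:**
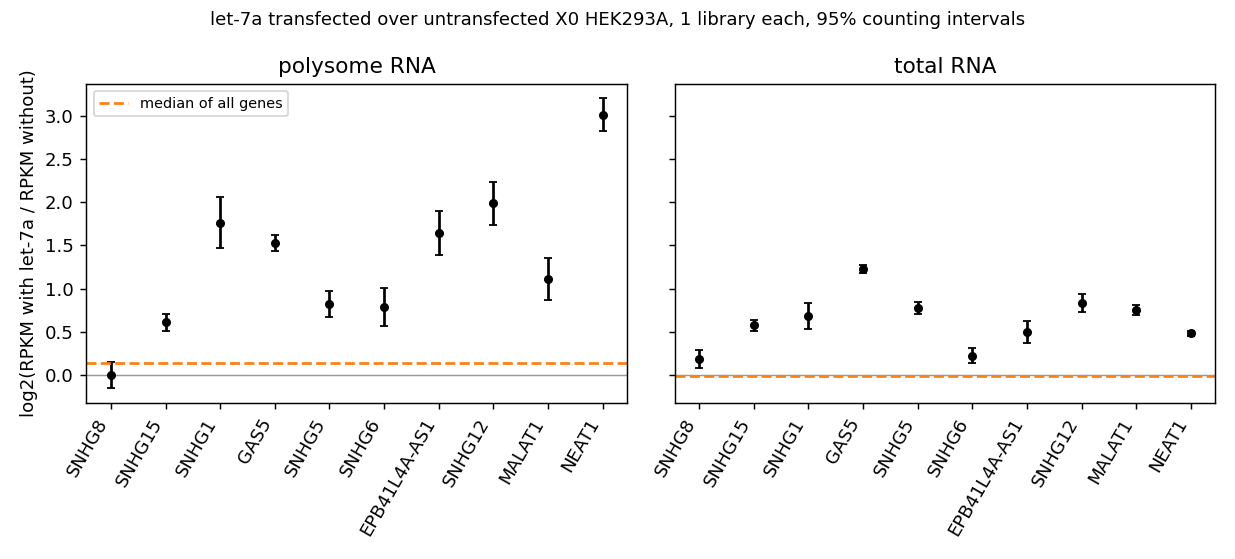
log2 of the RPKM ratio of let-7a transfected over untransfected X0 HEK293A cells (vertical axis) in polysome RNA on the left and total RNA on the right, 1 library each, with exact 95% counting intervals as bars and the median of all genes as a dashed line. Every member except SNHG8 lies above that line in polysomes, NEAT1 highest at a ratio of 8.08.

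The 5 other long noncoding RNAs were also all higher in polysomes of let-7a cells, by a median of 1.32, and 9 of 10 further noncoding hosts were higher in total RNA, with 10 of 10 higher in polysomes (medians of 0.39 and 0.73). Protein-coding hosts had medians of −0.24 in polysomes and 0.15 in total RNA. Paraspeckle protein mRNAs, whose proteins assemble on NEAT1, were lower in 8 of 8 in both fractions (medians of −0.55 and −0.60). A link of these values to those of NEAT1 was not tested. Over all genes the medians were 0.13 in polysomes and −0.01 in total RNA, and the shares of all genes higher or lower were not computed. The let-7a polysome library was the shallower of the pair, with 7.39 M reads over genes of the human table, against 12.2 M for X0, and the transfection reagent, the table and let-7a itself cannot be told apart from one another, since no mock-transfected polysome library was analysed here.

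Across the 10 HEK293A libraries the genes most like the mean host profile were KTN1 (Pearson r = 0.92), DNAJC2 (0.92) and IBTK (0.91), out of 7119 genes whose mean reached 5 RPKM. Those most like MALAT1 were ALDH1L2, TMED8 and HOXD10 (r of 0.99 each). The libraries share cells by level and fall into 2 fractions, so that r partly counts the gap between fractions.

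The snoRNAs themselves were out of reach. The small RNA table lists 41 features for 19 of the 28 snoRNA symbols assigned to the hosts, and all were at 0 counts in all 8 libraries. By counting error alone this allows up to 3 counts each. The column labels name reads left unmapped in an earlier step, and whether snoRNA reads were lost there was not tested. All 805 features named SNORA or SNORD held 9 counts in sum, of 1003395 counts over all features. The 10 member genes held 6 counts in sum. No member feature passed edgeR's filter on low counts, and without it 3 were tested and 0 called.

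Gene assignment limits some values. In RefSeq, GAS5 overlaps GAS5-AS1 and ZBTB37, SNHG12 overlaps TRNAU1AP, SNHG6 overlaps MCMDC2, EPB41L4A-AS1 overlaps EPB41L4A, and MALAT1 overlaps TALAM1. The sources used here do not give the strand setting of the counting, and reads of these partners cannot be told apart. Library preparation selected polyA RNA per the labels. MALAT1, whose mature 3′ end carries no polyA tail, and the long form of NEAT1 are therefore measured only as far as such selection retains them.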

How the data were processed

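RPKM values were deposited by the authors for polysome and total RNA. Raw counts per gene were deposited by the authors for small RNA. Per the submitters' processing notes cutadapt, STAR, hg19 and mm10 were used, with roles, counting tool, strand and annotation not given in the sources used here. The series design speaks of 2 replicates, but the tables hold a single column for each library type and level, and pooling is not stated. The members, gene lists and tests were chosen with earlier results of these data known. Members are named wherever listed, and from each list up to 4 genes of smallest p past the threshold, apart from a gene that is not reported here. From each profile the 3 genes of highest Pearson r are named.

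Low RPKM values are whole multiples of 1 read, and reads recovered within 0.02 of a whole number covered 11342 of 11342 HEK293A genes, 21038 of 21042 NIH3T3 genes above 0 and 99.9% in each let-7a library (over genes of the human table). Over genes averaging 1 RPKM or more, log2(RPKM + 0.5) occupancy and total RNA were fitted over level ranks 0 to 4 with limma 3.58.1, with a mean-dependent variance prior and Benjamini-Hochberg adjustment at 0.05. Polysome against total RNA was the mean of the 5 paired log2 ratios. Alternatives were pseudocounts of 0.1 and 1, no filter, a mean of 5 RPKM, 10% trimmed-mean centring, quantile normalization, edgeR 4.0.16 on recovered reads, another variance prior, X1 to X4 against X0, and leaving out each level. Small RNA was tested with edgeR, and DESeq2 1.42.0 as an alternative. On simulated HEK293A occupancy of 11125 genes with 200 slopes of 0.5, limma recovered 90.5% of them and 7.18% of its calls were false. That slope is larger than those of the called hosts (0.16 to 0.19), so the share recovered does not apply to them. The simulation used a single fixed dispersion and left all other genes unchanged, whereas 6460 of 11125 genes were called in the data. Sequences are from RefSeq (GRCh38.p14), which served otherwise for names and overlaps only.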

Additional observations from a re-analysis of the deposited data

Results flagged for a closer look

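For 3 of the 7 RNAs listed in both lines, total RNA at X1, X2, X3 and X4 was on 1 side of X0 in HEK293A. In NIH3T3 it was on the other side at every level. The share of all genes with this pattern was not computed, so the 3 have no background to be set against. The difference between the lines was not tested, and the 4 changes within a line share its X0 library. NEAT1 averaged −0.62 in HEK293A (−0.81 to −0.42) and 0.66 in NIH3T3 (0.28 to 0.85), in log2 relative to X0. SNHG12 averaged 0.19 in HEK293A (0.08 to 0.29) and −0.65 in NIH3T3 (−0.83 to −0.52). SNHG1 averaged 0.21 in HEK293A (0.01 to 0.40) and −0.39 in NIH3T3 (−0.57 to −0.21). In HEK293A it was at 4.03 and 4.17 RPKM at X3 and X4 against 3.99 RPKM at X0 (801, 685 and 610 reads). With 1 library per level, differences this small do not settle on which side of X0 these 2 levels lie.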

How the results depend on the processing

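Results were recomputed under the alternatives that apply to each, and the likeness correlations were not. In NIH3T3 polysome against total RNA 6 members were lower in each setting run except without the filter (7, with Malat1) and at a mean of 5 RPKM (5), and the occupancy trend called 0 members in each setting run. In HEK293A 0 to 6 members rose in occupancy with a level left out (0 to 7189 genes over the table), 7 with centring, 7 with edgeR, and 0 with X1 to X4 against X0 (1 gene). For total RNA 0 to 2 members fell with a level left out (3 to 537 genes), 1 (56 genes) at a mean of 5 RPKM, which drops MALAT1 and SNHG1, and 0 (3 genes) with X1 to X4 against X0. In polysome against total RNA 3 members were lower with centring and 3 with edgeR, and 5206 genes were called at a mean of 5 RPKM. For NIH3T3 total RNA, X1 to X4 against X0 called 3 members lower and 2479 genes, and leaving out a level 0 to 79 genes. With let-7a, centring left 1 member higher in occupancy by 2-fold. The cause of these shifts was not tested.

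The estimates that changed sign were called in neither form. HEK293A occupancy slopes were −0.093 (pseudocount 0.1), −0.072 (edgeR) and −0.018 (X1 to X4 against X0) for NEAT1, and 0.029 (centring), 0.048 (quantile normalization) and 0.034 (edgeR) for SNHG12. EPB41L4A-AS1 was at −0.16 with X1 to X4 against X0. With a level left out they ran from −0.0097 to 0.025 for NEAT1, from −0.11 to 0.15 for SNHG12 and from −0.021 to 0.11 for EPB41L4A-AS1. For HEK293A total RNA, X1 to X4 against X0 gave 0.21 for SNHG1, 0.19 for SNHG12 and 0.0059 for SNHG15, and leaving out a level gave −0.13 to 0.0086 for SNHG1 and −0.080 to 0.032 for SNHG12. In polysome against total RNA, GAS5, SNHG1 and SNHG5 were at 0.16, 0.30 and 0.090 with centring and at 0.21, 0.36 and 0.14 with edgeR, and SNHG1 ran from −0.18 to 0.047 with a level left out. In NIH3T3, X1 to X4 against X0 gave occupancy of −0.036 for Snhg1 and −0.10 for Snhg12. With a level left out, occupancy slopes ran from −0.038 to 0.055 for Gas5, −0.022 to 0.11 for Snhg1 and −0.036 to 0.12 for Snhg12, and total RNA slopes from −0.34 to 0.022 for Snhg5 and −0.12 to 0.13 for Snhg6.

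No paired analysis was possible because the labels give no replicate numbers to use as a block; occupancy itself sets polysome against total RNA of the same level. NIH3T3 polysome values rest on 14 to 65 reads for Snhg6 and on 17 to 67 for Malat1. DESeq2 on small RNA had no member feature to test.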
